A study of Homo sapiens with 6 samples.

Results

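The proteasome subunit genes were followed across 6 libraries of RNA and ribosome footprints from A549 cells, a human line of non-small cell lung cancer. They were taken by name, as all protein-coding genes of the count table called PSMA, PSMB, PSMC or PSMD followed by a number, which gave 39 of 60648 genes in the table (19954 of them protein-coding). Of these, 19 belong by name to the 20S core (PSMA and PSMB) and 20 to the 19S cap (PSMC and PSMD). The names alone decide which genes are members, with no threshold on a measured value.

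The proteasome degrades proteins tagged with ubiquitin and returns their amino acids to the cell. Its 20S core is a barrel with outer rings of alpha subunits (PSMA), which gate the entry, and inner rings of beta subunits (PSMB), among which PSMB5, PSMB6 and PSMB7 carry the proteolytic sites. The 19S cap recognises, unfolds and feeds in substrates, through a ring of ATPases (PSMC), the base subunits PSMD1, PSMD2 and PSMD4, and a lid that holds the deubiquitinase PSMD14. PSMD5, PSMD9 and PSMD10 carry subunit names but act as chaperones in building the base. PSMB8, PSMB9 and PSMB10 replace the catalytic subunits in the immunoproteasome, PSMB11 is known from the thymus and PSMA8 from the testis.

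Cells carrying a control shRNA or an shRNA against METTL16, an RNA methyltransferase, were held for 2 h in complete medium or in medium for amino acid starvation, and all samples were given cycloheximide, a drug that stalls elongating ribosomes, for 5 min. The groups were starved cells with control shRNA, starved cells with METTL16 shRNA and cells with METTL16 shRNA in complete medium. No library held control shRNA in complete medium, so starvation could be compared in knockdown cells only. Each group gave 1 library of chemically fragmented input RNA and 1 of ribosome footprints, the fragments left after RNase I digestion, so there are no replicates and every difference compares single libraries. Below, 3 values in a row follow that order of groups.

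Library totals ran from 465303 to 775676 counts in input RNA and from 518955 to 781831 in footprints. METTL16 had 44, 9 and 19 input counts and 60, 3 and 7 footprint counts, lower in both knockdown groups. Of 6 epithelial markers 5 or 6 had reads in every library, 6 fibroblast markers together held 4 to 33 reads, and 6 leukocyte and erythroid markers held 0. Nuclear protein-coding genes took 82.6%, 77.0% and 77.5% of input counts and 79.0%, 64.4% and 66.0% of footprint counts. The part of that gap in the results was not tested.

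Levels are given in CPM, counts scaled to a common library total with TMM factors (trimmed means of log ratios), and differences as log2 ratios. The bracketed range after a ratio is its 95% counting interval, and covers no error but that of counting, as PCR copies without molecular identifiers are not independent molecules. Translation efficiency divides a gene's footprint level by its input RNA level. An error in an input count therefore enters the RNA ratio and the translation efficiency ratio with opposite signs, so the 2 are not independent. A gene counted as measured when its counts averaged at least 30 in the libraries of an assay (of both assays for translation efficiency). It counted as 2-fold higher or lower when it differed at least 2-fold with an interval that excluded 0. Rankings, medians and numbers of members below cover measured members unless stated otherwise. TMM holds the typical gene near 0, so a shift shared by all mRNAs is not seen, and fewer cells cannot be told apart from less RNA per cell.

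Most subunits of the standard proteasome could be measured. In input RNA 26 members passed the minimum (11 of the core, 15 of the cap), in footprints 29 (11 and 18) and in both 26. The core set held PSMA3, PSMA4, PSMA5, PSMA7 and the whole constitutive beta ring, PSMB1 to PSMB7. The ATPases PSMC2 to PSMC5 were measured in both assays, while PSMC6 and the lid subunits PSMD6 and PSMD7 passed in footprints alone. Among members under the minimum in both assays were PSMA1 (8 to 21 counts over the libraries), PSMA6 (2 to 23), the ATPase PSMC1 (5 to 22) and the chaperone PSMD9 (3 to 19).

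The immunoproteasome subunits were sparse. PSMB8 had 10, 2 and 13 input counts and 29, 14 and 12 footprint counts. PSMB9 had 2, 2 and 4 input counts but 24, 7 and 15 footprint counts, and PSMB10 at most 6 in any library. PSMA8 and PSMB11 had 0 counts in all 6 libraries, which allows up to 3.25 to 6.61 CPM depending on the library. PSMA2, an alpha ring subunit, had 0, 3 and 1 input counts and 0 footprint counts. The treatment of reads shared between overlapping genes is not given in the sources used here, so counts this low need not mean a low level of PSMA2. The table lists 36 pseudogenes named after 15 of the members, with 73 reads in all 6 libraries against 20181 on the members. How reads that match a gene and its pseudogene were assigned is not given in the sources used here, so the values of members with such copies are uncertain. PSMC1 has 13 named pseudogenes and PSMA6 has 4. Among measured members, PSMC2 has the most pseudogene reads, 25 over the libraries.

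Measured subunit mRNAs that meet in 1 particle differed widely in level. Per length, in TPM (counts over the gene length of the table, scaled to a common total), the 11 measured core members in the starved control's input RNA ranged from 15.2 for PSMA5 to 250 for PSMA7, and the 15 measured cap members from 8.52 for PSMD1 to 153 for PSMD8. The median input TPM of these core members was 117, 83.0 and 84.8 in the 3 groups and that of these cap members 40.0, 30.7 and 31.2. The core was the higher in each library, although the ranges overlapped in all. Among measured members, PSMA5 and PSMD1 had the lowest input TPM of their particle in every group. These levels rest on the table's gene lengths, which count all annotated exons, with medians of 2125 bases for these core and 4399 for these cap members. PSMD1 has 15795 bases, and its 89.3 CPM in the starved control's input RNA was above the 43.8 CPM of PSMD14. The part of length in the TPM differences was not tested. All 39 members summed to 4101, 3860 and 3640 CPM of input RNA and to 7187, 6481 and 5548 CPM of footprints.

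**Figure D1:**
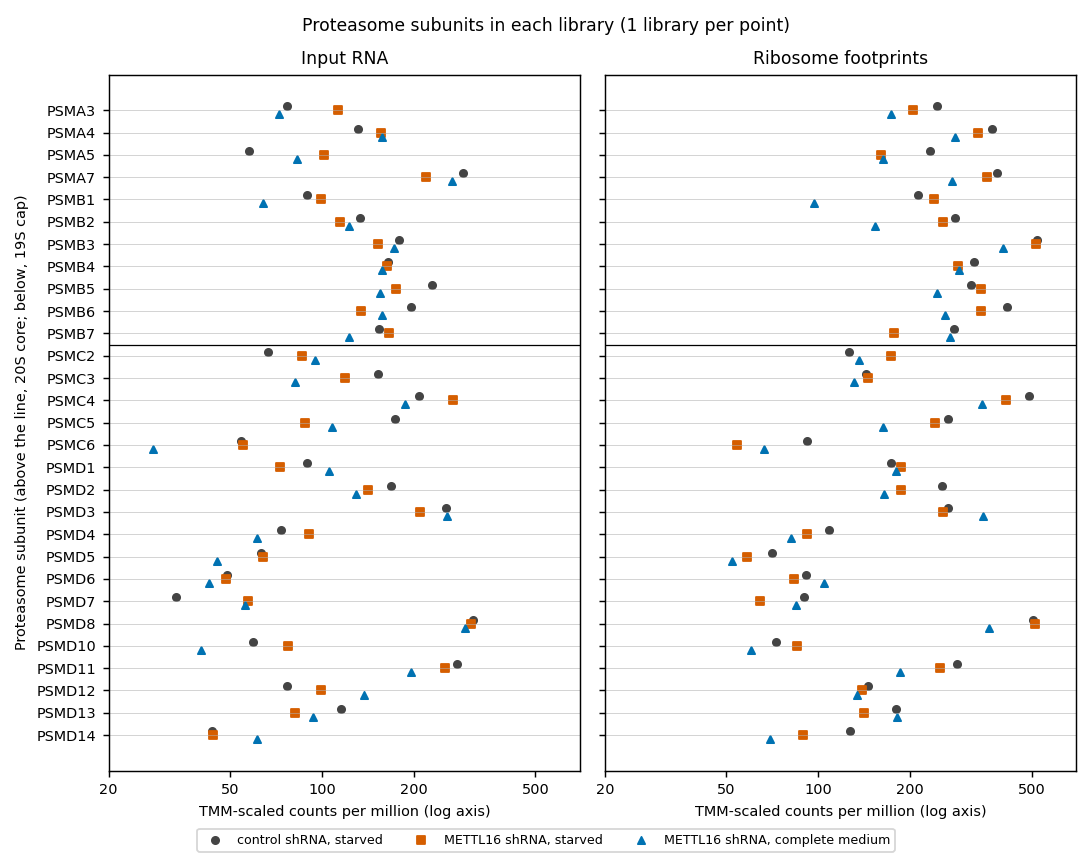
TMM-scaled CPM (log axis) of the 29 proteasome subunits measured in footprints, in input RNA (left) and ribosome footprints (right), with 1 point per library for the 3 groups. PSMB1 footprints stand at 212 and 239 in the starved groups against 96.9 in complete medium, and PSMB7 footprints at 177 in the starved knockdown against 277 and 271.

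The core took a larger share of footprints than of RNA. It held 43.1%, 42.9% and 44.2% of the members' input counts and 51.0%, 50.8% and 48.3% of their footprint counts. The exact Clopper-Pearson 95% intervals of the input shares lay between 40.6% and 46.1% and those of the footprint shares between 46.6% and 52.5%, so in each group the assays did not overlap. These shares depend on no scaling between libraries.

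The measured proteasome mRNAs carried many footprints for their RNA level in all 3 groups. Relative to the median translation efficiency of all 2866 measured genes of the same group, a scale that needs no factor between libraries, the members' median was 0.93, 0.84 and 0.69 in log2 units, and 25, 25 and 26 of the 26 measured members lay above that median. The interval lay wholly above it in 21, 19 and 19 members, or 80.8%, 73.1% and 73.1%, against 28.8%, 26.1% and 27.6% of all measured genes. It lay wholly below it in 0 measured members in each group. The minimum drops members with few reads in either assay, and so those with few footprints. Among the dropped members PSMA6 had -2.43 (-4.38 to -0.49) in the starved knockdown and -1.80 (-3.14 to -0.46) in complete medium. PSMB9 was among those that went the other way, at 2.66 (0.78 to 4.54) in the starved control and 2.08 (0.57 to 3.60) in complete medium.

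Core subunits were the higher. The core had median relative levels of 1.14, 1.05 and 0.92 and the cap of 0.67, 0.57 and 0.53, a difference of 0.47, 0.48 and 0.39. All 11 measured core members lay above the all-gene median in each group, with an interval above it in 11, 10 and 10. Of the 15 measured cap members 10, 9 and 9 had such an interval. The particles overlapped throughout: PSMA7 of the core, at 0.46, 0.79 and 0.14, stood below the cap ATPase PSMC4, at 1.29, 0.70 and 0.97, in the control and in complete medium but not in the starved knockdown.

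Gene length moved with this difference. The median gene length of the table was 2125 bases for the measured core members, 4399 for the cap members and 5320 for all measured genes, and over 2833 protein-coding genes translation efficiency correlated with length at Spearman's rho of -0.23, -0.27 and -0.21 (across genes, which are not independent replicates). Over the 26 measured members alone rho was 0.06, -0.06 and -0.33. Taken relative to protein-coding genes of like length (4 bins of equal gene number), a comparison chosen after seeing the data, the core had medians of 0.95, 0.82 and 0.72 and the cap of 0.62, 0.44 and 0.42. The difference was then 0.33, 0.38 and 0.30. The lengths count all annotated exons, and a translation efficiency per coding base was not computed here.

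Within the core, the order of the alpha and beta rings differed between groups. The 4 measured alpha subunits had medians of 1.63, 0.86 and 0.99 and the 7 constitutive beta subunits of 1.12, 1.23 and 0.82. PSMB3, a structural beta subunit, stood at 1.59, 1.84 and 1.32, above 97.9% to 99.0% of measured genes. The catalytic subunits each had another order of the groups: PSMB5 (chymotrypsin-like site) stood at 0.52, 1.05 and 0.75, PSMB6 (caspase-like site) at 1.14, 1.42 and 0.82 and PSMB7 (trypsin-like site) at 0.90, 0.18 and 1.23.

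In the cap, the ATPases, the base and the lid had medians of 0.82, 0.65 and 0.72 in the starved control. The lid's median was 0.69 in the starved knockdown and 0.33 in complete medium. PSMD14 stood at 1.57, 1.09 and 0.27, while the lid subunit PSMD11 stayed at 0.10, 0.06 and 0.02, the narrowest range of any measured member. PSMD14 had 25, 20 and 46 input counts. It passed the minimum of 30 only through complete medium, where its high input count also lowers its level. The chaperones PSMD5, at 0.21, -0.05 and 0.30, and PSMD10, at 0.33, 0.23 and 0.67, had intervals that included 0 in each group. Cytosolic ribosomal protein mRNAs (65 measured of 78) had medians of -1.61, -1.74 and -0.22 on the same scale. The TRiC chaperonin, another large complex that folds newly made proteins, had medians of 0.80, 0.10 and 0.72 over its 8 subunits.

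**Figure D2:**
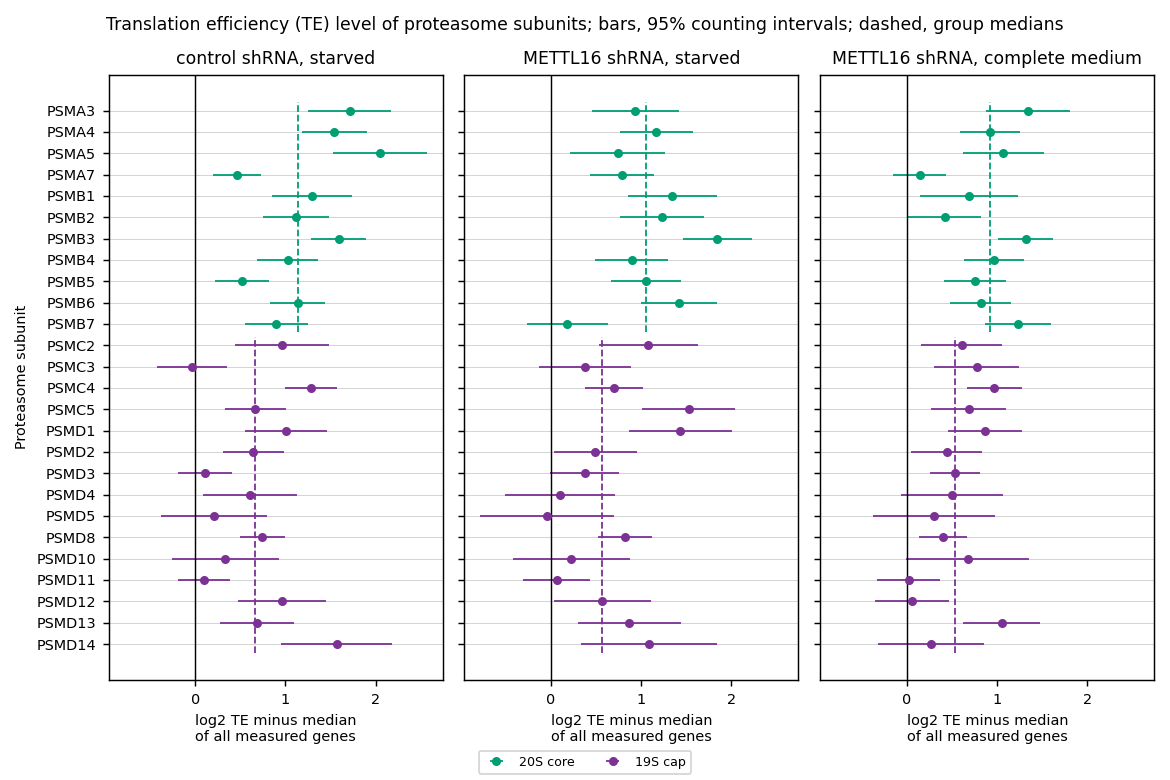
Translation efficiency level of the 26 measured proteasome subunits in each group, as log2 footprint TPM over input TPM minus the median of all measured genes, with 95% counting intervals and group medians dashed. The core median lies at 1.14, 1.05 and 0.92 and the cap median at 0.67, 0.57 and 0.53, and nearly all points lie right of 0.

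The first comparison asked what METTL16 knockdown did in starved cells. Most subunits differed by less than 2-fold from the starved control in RNA, footprints and translation efficiency. The members' median log2 ratio was -0.02 in input RNA, against 0.04 for all 3876 genes measured, and -0.02 in translation efficiency, against 0.00 for all 2866. In input RNA 0 of 26 members were 2-fold higher or lower, where 9.60% of all genes were, and 1 had an interval above 0 and 3 below, where 16.8% and 14.2% of all genes did. In translation efficiency 1 of 26 was 2-fold lower, against 10.4% of genes past 2-fold either way, and 2 had an interval above 0 and 4 below, against 12.9% and 12.6%. In footprints 0 of 29 were 2-fold higher, against 3.96%, and 0 lower, against 3.03%.

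Footprints of the members lay slightly lower in the knockdown. Their median was -0.15 against 0.01 for all 3431 genes, with 22 of 29 below 0. The interval lay below 0 in 6 members, where 13.7% of all genes had such an interval, and above 0 in 1, against 16.8%. The core and cap medians were -0.15 and -0.16, and the summed footprint counts gave -0.16 (-0.24 to -0.07) for the core and -0.14 (-0.23 to -0.05) for the cap. The size rests on the scaling: with total counts in place of TMM the all-gene median itself moved by -0.35 in footprints, -0.12 in input RNA and -0.23 in translation efficiency, the members' footprint median became -0.50, and PSMB1, PSMB5, PSMC3, PSMD1, PSMD8 and PSMD10 moved to the lower side as well.

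PSMA5, an alpha ring subunit (ENSG00000143106.13, GRCh38 chromosome 1, 109399042 to 109426448), was the measured member that passed 2-fold, in translation efficiency. Its input RNA stood at 57.8, 101 and 82.8 CPM and its footprints at 233, 160 and 163 CPM, from 33 to 62 and 77 to 215 counts. The starved control was thus the lowest of the groups in RNA and the highest in footprints. The knockdown's log2 ratio was 0.81 (0.14 to 1.50) in RNA, -0.53 (-0.94 to -0.16) in footprints and -1.34 (-2.08 to -0.60) in translation efficiency, or -1.04 if the complete-medium knockdown supplies the input RNA.

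The alpha subunit PSMA3 had a like pattern at smaller size. Its input RNA stood at 77.0, 112 and 72.1 CPM and its footprints at 245, 204 and 172 CPM. Its RNA ratio was 0.54 (-0.06 to 1.16) and its translation efficiency ratio was -0.80 (-1.48 to -0.13). Over the 4 measured alpha subunits the median translation efficiency ratio was -0.60, with PSMA7 at 0.30 (-0.15 to 0.74), against 0.09 over the 7 beta subunits. PSMA7 RNA had a ratio of -0.41 (-0.79 to -0.05).

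PSMB7 differed from the other catalytic subunits. Its input RNA was near even in the starved groups, at 154 and 165 CPM, and stood at 123 CPM in complete medium. Its footprints were lowest in the starved knockdown, at 277, 177 and 271 CPM. The ratio of knockdown to control was 0.10 (-0.36 to 0.56) in RNA, -0.64 (-1.02 to -0.29) in footprints and -0.75 (-1.31 to -0.18) in translation efficiency. PSMB6, at 196, 135 and 158 CPM in RNA, had an RNA ratio of -0.54 (-1.02 to -0.08) and a translation efficiency ratio of 0.25 (-0.27 to 0.77). For PSMB5, at 229, 174 and 155 CPM, these were -0.39 (-0.82 to 0.02) and 0.50 (0.02 to 0.99). The highest footprint ratios of the core were those of PSMB1, 0.17 (-0.17 to 0.51), and PSMB5, 0.11 (-0.18 to 0.39).

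Among the ATPases, PSMC5 (ENSG00000087191.13, chromosome 17, 63827431 to 63832019) had the lowest RNA ratio of all measured members. Its input RNA stood at 173, 88.2 and 108 CPM and its footprints at 265, 241 and 163 CPM. The RNA was thus higher in the starved control than in either knockdown library. The ratio was -0.96 (-1.54 to -0.43) in RNA, just short of 2-fold, -0.13 (-0.47 to 0.19) in footprints and 0.83 (0.21 to 1.45) in translation efficiency. Scaling by total counts gave -1.09 and TMM factors made over all genes of the table -1.02, both past 2-fold.

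PSMC4 went the other way, with input RNA at 208, 269 and 187 CPM and footprints at 489, 412 and 343 CPM. Its ratios were 0.37 (-0.01 to 0.75) in RNA and -0.62 (-1.05 to -0.18) in translation efficiency. PSMC2, with an RNA ratio of 0.37 (-0.31 to 1.05), had the highest footprint ratio of the measured members, 0.46 (0.03 to 0.88). PSMC6 had the lowest, -0.75 (-1.46 to -0.12), from 85 and 26 counts. PSMC3 had ratios of -0.35 (-0.87 to 0.15) in RNA and 0.03 (-0.41 to 0.45) in footprints.

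In the measured lid subunits and the base subunits PSMD1, PSMD2 and PSMD4 no translation efficiency interval excluded 0. Among them the lowest was PSMD4, a ubiquitin receptor, at -0.53 (-1.33 to 0.27), next to PSMD14 at -0.51 (-1.49 to 0.47). The highest was PSMD1, the large scaffold of the base, at 0.40 (-0.33 to 1.13). With the complete-medium knockdown's input RNA, 9 of the 26 members changed sign in this ratio, PSMD4 and PSMD1 among them. PSMD7 of the lid, under the minimum in input RNA, had -1.24 (-2.27 to -0.21). PSMD14 footprints stood at 127, 89.4 and 69.2 CPM with a ratio of -0.49 (-1.04 to 0.01). PSMD13 had the second lowest RNA ratio of the measured cap members, -0.49 (-1.12 to 0.10). PSMD5 and PSMD10 had translation efficiency ratios of -0.29 (-1.23 to 0.66) and -0.13 (-1.01 to 0.74), and PSMD10 had 0.37 (-0.35 to 1.10) in RNA and 0.24 (-0.37 to 0.81) in footprints.

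**Figure D3:**
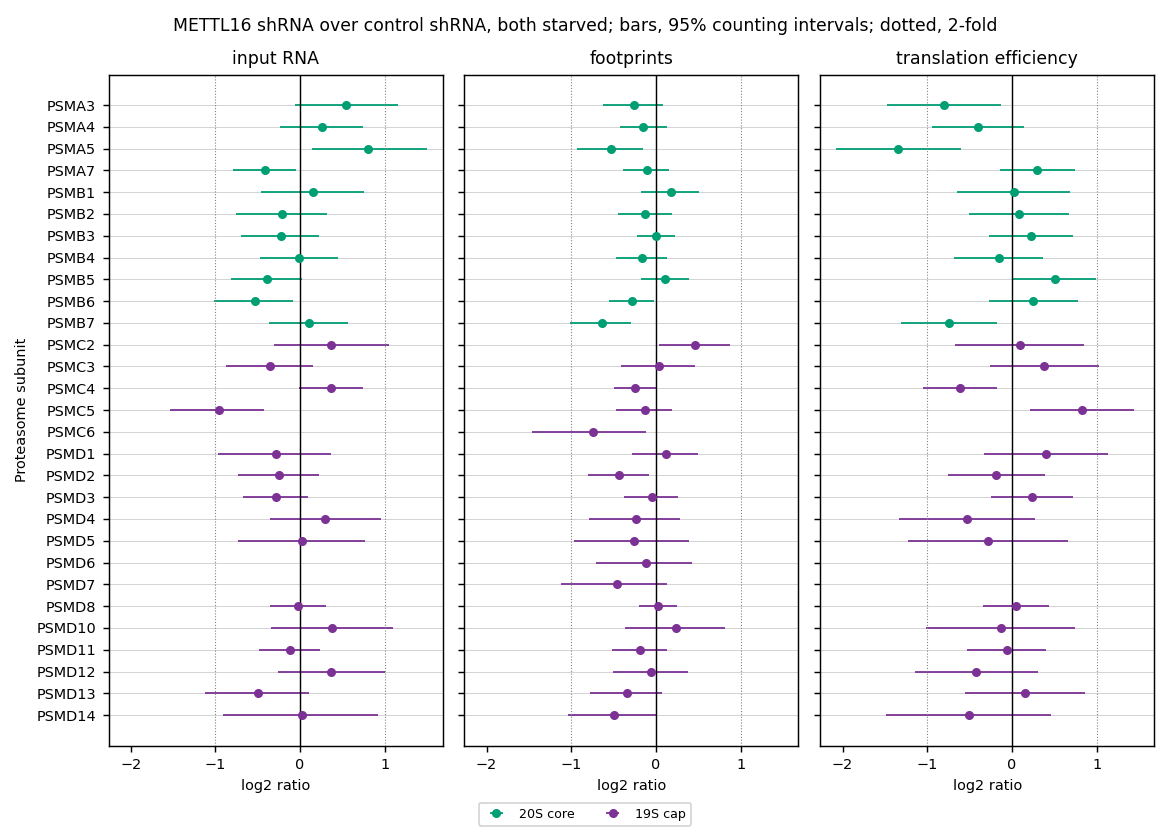
Log2 ratios of METTL16 shRNA over control shRNA, both starved, for each measured proteasome subunit in input RNA, footprints and translation efficiency, with 95% counting intervals and 2-fold marked by dotted lines. PSMA5 at -1.34 in translation efficiency is the point past 2-fold, and PSMC5 at -0.96 lies just inside it in input RNA.

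The second comparison asked what starvation did against complete medium in METTL16 knockdown cells. It uses the same starved knockdown libraries as the first, so a value particular to those libraries enters both. Footprints on the core subunits were higher in starved cells, with a median log2 ratio of 0.36 over 11 members, against 0.16 over 18 cap members and 0.01 over all genes. Of the 29 members 9 had an interval above 0, where 17.8% of all genes did, and 2 below, against 19.2%. Summed counts gave 0.30 (0.20 to 0.40) for the core and 0.15 (0.05 to 0.25) for the cap.

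Input RNA of the members was near even. The median ratio was 0.05 in the core and 0.07 in the cap, 0 of 26 members passed 2-fold against 7.17% of all genes, and 5 had an interval above 0 against 17.5% and 0 below 0 against 18.7%. With TMM factors over all genes of the table the members' median turned from 0.06 to -0.026, with 2 intervals above 0 and 4 below, against 13.5% and 22.9% of all genes. In translation efficiency the core median was 0.31 and the cap median 0.05, against 0.06 over all genes. The interval lay above 0 in 6 of 26 members, where 17.3% of all genes did, and below 0 in 1, against 15.9%. That member was 2-fold lower, as were 9.56% of all genes. From summed counts the translation efficiency ratio was 0.25 (0.09 to 0.42) in the core and 0.03 (-0.12 to 0.19) in the cap, intervals that overlap.

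PSMB1, a structural beta subunit (ENSG00000008018.9, chromosome 6, 170535120 to 170553307), was 2-fold higher in footprints, as were 5.39% of all genes. Its footprints stood at 212, 239 and 96.9 CPM from 196, 115 and 63 counts, so that both starved libraries were above complete medium. Its input RNA stood at 89.3, 99.2 and 64.1 CPM in the same order. The ratio was 1.30 (0.85 to 1.77) in footprints, 0.63 (0.01 to 1.25) in RNA and 0.67 (-0.07 to 1.40) in translation efficiency.

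PSMB7 (ENSG00000136930.13, chromosome 9, 124353465 to 124415442) was the lowest of the measured beta subunits in footprints and in translation efficiency. With the values given above, its ratio was 0.43 (-0.03 to 0.88) in RNA, -0.61 (-1.01 to -0.23) in footprints and -1.04 (-1.62 to -0.47) in translation efficiency. Footprints of PSMB7 were low in the starved knockdown alone and near equal in the starved control and in complete medium. The 2-fold call ends with TMM factors made over all genes, at -0.997.

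PSMB2, PSMB3, PSMB5 and PSMB6 had footprint intervals above 0 and RNA intervals that included 0, whereas PSMB4, a structural subunit, was even in footprints, at -0.01 (-0.34 to 0.31), and in translation efficiency, at -0.06 (-0.59 to 0.46). PSMB2, a structural subunit, had 133, 115 and 123 CPM in input RNA and 279, 256 and 154 CPM in footprints, with ratios of 0.73 (0.34 to 1.13) in footprints and 0.83 (0.21 to 1.44) in translation efficiency. PSMB6 had ratios of 0.39 (0.07 to 0.71) and 0.61 (0.07 to 1.16) and PSMB3 of 0.36 (0.10 to 0.62) and 0.54 (0.05 to 1.02). PSMB5 had 0.48 (0.16 to 0.80) in footprints and 0.31 (-0.21 to 0.82) in translation efficiency. In the alpha ring PSMA7 had 0.66 (0.20 to 1.12) in translation efficiency, whereas PSMA3 and PSMA5 had -0.40 (-1.07 to 0.27) and -0.32 (-1.01 to 0.37). In RNA the measured core members ran from PSMA7 at -0.28 (-0.65 to 0.07) and PSMB6 at -0.22 (-0.70 to 0.23) to PSMA3 at 0.64 (0.06 to 1.22). PSMA5 footprints stood at -0.02 (-0.47 to 0.41).

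In the cap, PSMC5 and the lid subunit PSMD8 had translation efficiency intervals above 0. PSMC5 had 0.56 (0.17 to 0.96) in footprints and 0.85 (0.19 to 1.51) in translation efficiency. PSMD8 had 313, 309 and 294 CPM in input RNA and 506, 513 and 363 CPM in footprints, with ratios of 0.50 (0.24 to 0.76) and 0.43 (0.03 to 0.83). PSMD3, also of the lid, was lower in footprints, at 265, 256 and 346 CPM and a ratio of -0.43 (-0.77 to -0.11). Next to it was PSMD7, another lid subunit, at -0.38 (-1.08 to 0.27).

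Among the other measured ATPases and chaperones, RNA intervals lay above 0 for PSMC4 and PSMD10. Of the ATPases under the input minimum, PSMC1 had an RNA ratio of 1.67 (0.20 to 3.42) and PSMC6 of 0.97 (0.08 to 1.88). Their translation efficiency ratios were -2.53 (-4.51 to -0.55) and -1.25 (-2.33 to -0.17), from 6 to 25 input counts. PSMC4 had an RNA ratio of 0.53 (0.16 to 0.89) and a translation efficiency ratio of -0.26 (-0.71 to 0.18). PSMC3 had 0.55 (-0.01 to 1.10) and -0.39 (-1.09 to 0.30), and PSMC2 had -0.13 (-0.74 to 0.44) and 0.48 (-0.22 to 1.19). PSMD10 had the highest RNA ratio of the measured members, 0.94 (0.20 to 1.70), from 35 and 30 counts. In translation efficiency it had -0.44 (-1.38 to 0.50), the lowest of the measured cap members. Its footprint ratio was 0.51 (-0.16 to 1.18). PSMD14 had -0.46 (-1.31 to 0.31) in RNA and 0.83 (-0.13 to 1.79) in translation efficiency. Both ratios use the complete-medium input count through which it passed the minimum. The lowest cap RNA ratios beside that of PSMD14 were PSMD1 at -0.52 (-1.17 to 0.07) and PSMD12 at -0.46 (-1.01 to 0.05). PSMD4 had 0.56 (-0.09 to 1.20) in RNA, the second highest of the measured cap members.

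**Figure D4:**
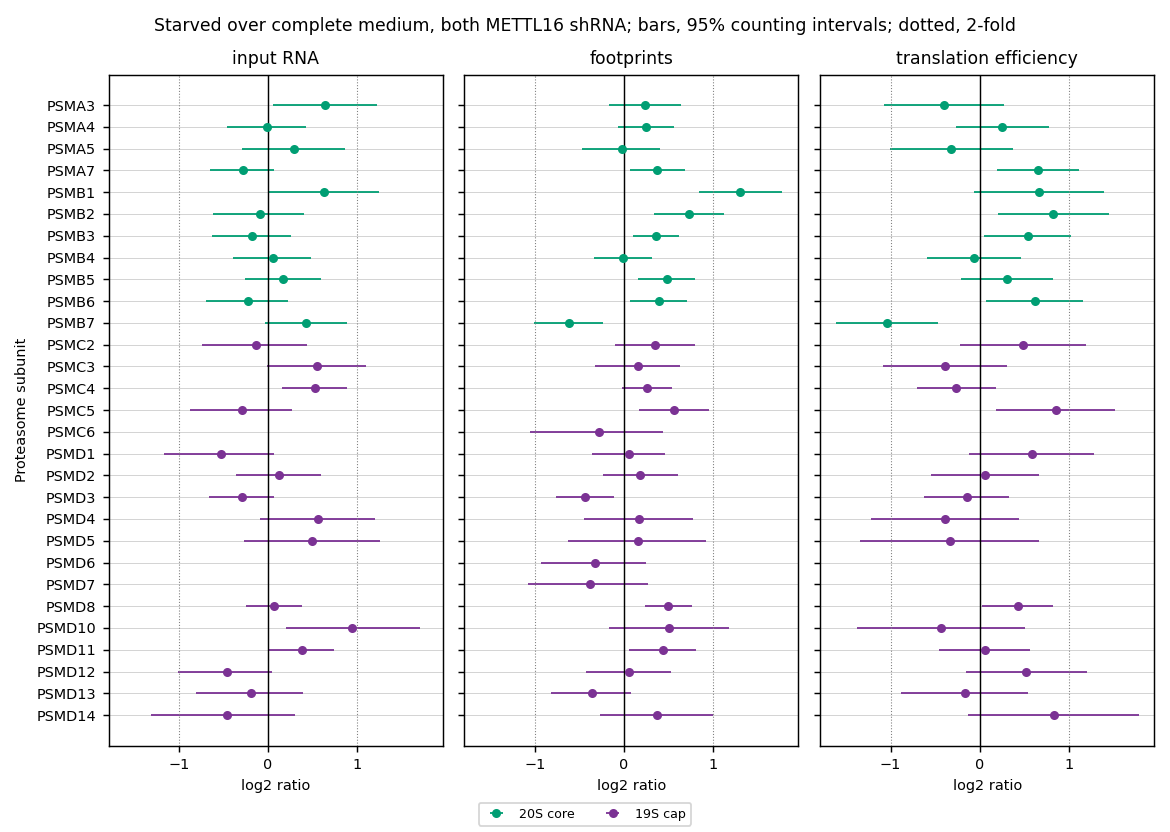
Log2 ratios of starved over complete medium, both METTL16 shRNA, for each measured proteasome subunit in input RNA, footprints and translation efficiency, with 95% counting intervals and 2-fold marked by dotted lines. PSMB1 at 1.30 in footprints and PSMB7 at -1.04 in translation efficiency lie past 2-fold, and the core median in footprints is 0.36.

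The ribosomal proteins stood apart from the members and from the typical gene in this comparison. Ribosomal protein mRNAs had a median footprint ratio of -1.24, with 48 of 65 at least 2-fold lower, where 6.73% of all genes were, against 0 of 29 proteasome members. Their median translation efficiency ratio was -1.51, with 51 of 65 at least 2-fold lower, where 9.56% of all genes were, against 1 of 26 members. Their input RNA was higher by a median of 0.33. The 8 TRiC subunits had a median of -0.59 in translation efficiency, and the 26 measured proteasome members one of 0.16. Without a count minimum, which brings in 35 members, the proteasome median was -0.064.

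**Figure D5:**
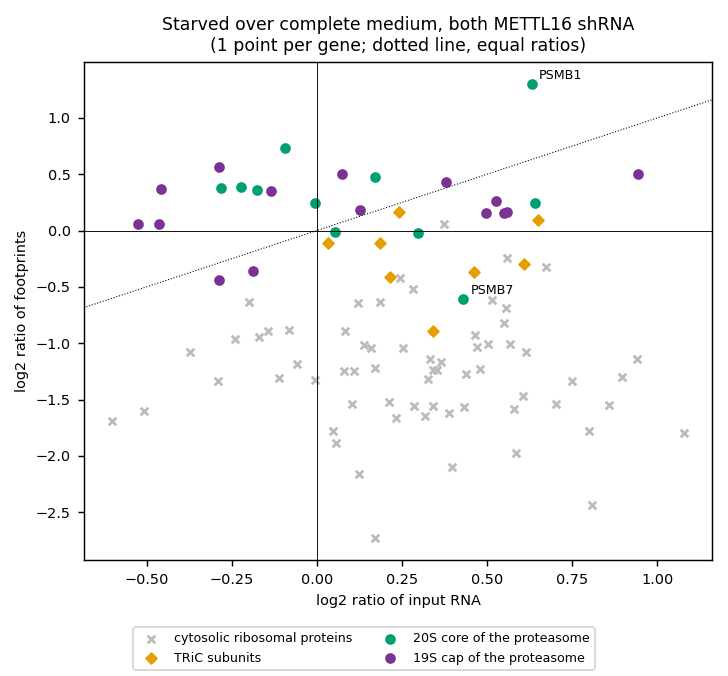
Log2 ratio of footprints against that of input RNA for starved over complete medium, both METTL16 shRNA, with 1 point per gene measured in both assays. The ribosomal proteins centre on -1.24 in footprints and the TRiC subunits on -0.21. The 29 proteasome subunits measured in footprints have a median of 0.24, and the 26 of them also measured in input RNA are drawn, with PSMB1 and PSMB7 named.

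Ribosomal protein mRNAs typically begin with a C followed by a run of pyrimidines, the TOP motif through which mTORC1 controls their translation. The starts of the proteasome genes were read for it in RefSeq promoters of GRCh38.p14, which matched 34 of the 39 members with 41 annotated starts. PSMA7, PSMB1, PSMB6, PSMB7 and PSMD4 had no matching entry, so their starts were not read. Among them, PSMB1 and PSMB7 are the measured members past 2-fold in starved against complete medium. A C followed by 4 pyrimidines (C or T) exactly at the annotated start occurred at 1 of the 41, a second start of PSMB5, against 47 of 78 starts of ribosomal protein genes and 4.07% of all promoters. The windows below show members whose values are given above beside 3 ribosomal protein genes that hold the motif, each with 15 bases before and 15 from the annotated start on, 5′ to 3′ on the gene's strand, with the first 5 transcribed bases in capitals.
PSMA5 (chr1:109426434-109426463, minus strand): cgcggtcgcacgcgcAGTTGgtccttagta
PSMB2 (chr1:35641512-35641541, minus strand): tgcaggcgtcgcgccAATCTtcgctctgag
PSMB3 (chr17:38752726-38752755, plus strand): agccaatgaagagacAGCAGtgagagcggt
PSMC5, first start (chr17:63827416-63827445, plus strand): aggtcccaatcctccGCTTCcgcgcttgcg
PSMD8 (chr19:38374556-38374585, plus strand): tccggtcaccatcttGAGTGacgacagagg
PSMB5, second start (chr14:23034886-23034915, minus strand): ttctcagaattagttCTTTCtgcccacact
RPSA (chr3:39406705-39406734, plus strand): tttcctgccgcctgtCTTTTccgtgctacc
RPS12 (chr6:132814554-132814583, plus strand): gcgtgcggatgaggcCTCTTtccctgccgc
RPL29 (chr3:51995881-51995910, minus strand): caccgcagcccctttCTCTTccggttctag

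PSMA5, PSMB2 and PSMB3 begin with A and PSMC5 and PSMD8 with G, while the ribosomal protein genes begin with C and pyrimidines. Of these ribosomal protein mRNAs RPSA had a footprint ratio of -2.73 (-3.55 to -2.06) and RPS12 of -1.80 (-2.83 to -0.97), whereas RPL29, which holds the motif as well, had 0.05 (-0.62 to 0.71). An annotated start need not be the start used in A549. The motif TGACNNNGC, searched on both strands as a core of the element that the transcription factors NFE2L1 and NFE2L2 bind, occurred in 10 of the 41 promoters of 300 bases (3 of 20 in the core, 7 of 21 in the cap) and in 13.3% of all promoters.

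Genes that work with the proteasome passed 2-fold singly. From a list of 35 activators, assembly factors, shuttles and regulators, 23 were measured in RNA and in translation efficiency and 26 in footprints. In the knockdown against control, starved, 2 of 23 were 2-fold higher in RNA, where 5.03% of all genes were. These were SEM1, a small subunit of the lid whose symbol falls outside the PSM names, at 1.26 (0.64 to 1.92), and UCHL5, a deubiquitinase of the cap, at 1.19 (0.44 to 2.00). Both were 2-fold lower in translation efficiency, SEM1 at -1.75 (-2.52 to -0.97) and UCHL5 at -1.18 (-2.17 to -0.19), as were 5.48% of all genes. These ratios share their input counts with the RNA ratios. In footprints UCHL5 was even, at 0.01 (-0.73 to 0.69), so its translation efficiency ratio restates its RNA ratio, and SEM1 had -0.49 (-1.02 to -0.003). The lowest RNA ratio was that of the proteasome activator PSME4, -0.89 (-1.86 to -0.04). In footprints 0 of 26 passed 2-fold, with the ubiquitin receptor ADRM1 at -0.59 (-1.12 to -0.10) and the core assembly factor POMP at -0.50, with an interval below 0, on the lower side, with BAG6 at 0.61 (0.14 to 1.07) on the higher.

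In starved against complete medium 2 of 23 partners were 2-fold higher in translation efficiency, where 6.91% of all genes were, and 2 lower, where 9.56% were. Among the higher was NFE2L1, the factor that induces proteasome genes when proteasome activity is short, at 1.01 (0.57 to 1.44). Its RNA ratio was -0.78 (-1.12 to -0.46), from 104 input counts in starved cells and 296 in complete medium. Its footprint counts before scaling were 175 and 202. Most of its translation efficiency ratio thus mirrors its RNA ratio, which shares the same input counts. The lower ones were TXNL1, a thioredoxin bound to the cap, at -1.32 (-2.31 to -0.33), and BAG6, a chaperone for misrouted proteins, at -1.26 (-1.82 to -0.70). TXNL1 also had the lowest footprint ratio, -0.85 (-1.72 to -0.08), next to the ubiquitin gene UBB at -0.68 (-1.05 to -0.32), which shares its repeats with other ubiquitin genes, so that its value is uncertain. SEM1 was 2-fold higher in RNA, at 1.03 (0.47 to 1.59), as were 3.02% of all genes. The partners' median translation efficiency level was 0.05, -0.06 and 0.25 relative to all genes, below the subunits' medians in each group.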

How the data were processed

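Input RNA and ribosome footprints of A549 cells were measured in 6 libraries, 1 per condition and assay, so no p-value was computed. The authors deposited raw counts per gene, with a gene length, and for each condition a table of TPM values and of the translation efficiency, which is the ratio of the condition's TPM values, footprints over input. The submitters' processing notes list the build GRCh38 and STAR 2.7.5c, Bowtie2 2.2.5, featureCounts 2.0.1 and cutadapt 2.8, without parameters; how multimapping reads and strand were treated is not given in the sources used here. A record broken over 3 lines that name no gene was left out.

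Counts were scaled with TMM factors (edgeR 4.0.16, R 4.3.3) made within an assay over genes with a mean of at least 30 counts and full library totals, and log2 ratios took a pseudocount of 0.5. The 95% intervals are exact (Clopper-Pearson, on the share of a gene's counts in 1 of the 2 libraries) for single assays, and for translation efficiency use a Poisson variance by the delta method. TPM was recomputed from the counts and lengths; the members' input TPM equals that of the authors' deposited table, within 1 per mille, in all 36, 36 and 35 members listed there. The code was tested on simulated counts. DESeq2 1.42.0 gave alternative size factors. Scripts ran in Python 3.11.15 with scipy 1.17.1, numpy 2.4.6, matplotlib 3.10.9 and pandas 2.3.3.

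All 39 members are accounted for. Described in full are members past 2-fold, the 2 highest and 2 lowest of the core and of the cap, the catalytic subunits, the ATPases, PSMD14 and the chaperones, and from the partner list extremes and genes past 2-fold; 1 item is not reported here. The members and lists were chosen with earlier results of these data known. Gene coordinates and start sequences come from RefSeq (GRCh38.p14).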

Additional observations from a re-analysis of the deposited data

How the results depend on the processing

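No paired analysis was possible because each condition has 1 library per assay. Of the summary values recomputed under the alternatives 196 stayed within the limits set for them and 31 moved. Signs were not stable throughout. In starved against complete medium the members' medians in RNA and in translation efficiency each turned negative under an alternative, as given below. Scaling by total counts moved the knockdown comparison: the members' medians became -0.14 (RNA), -0.50 (footprints) and -0.25 (translation efficiency). In RNA and in footprints 1 member each, and 2 in translation efficiency, were then 2-fold lower, intervals below 0 became 6 in input RNA and 20 in footprints, and those above 0 became 0 in footprints and in translation efficiency. Of all genes 20.4% in RNA and 37.4% in footprints then had an interval below 0, and 5.69% in translation efficiency one above. With DESeq2 size factors 3 members had RNA intervals above 0 in starved against complete medium, where 16.9% of all genes did. Shares of all genes past 2-fold are not given for the alternatives, so the numbers of members past 2-fold there have no background beside them.

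A count minimum of 10, or none beyond 1 count in each library, brought in low members: 2-fold lower in translation efficiency became 2 in the knockdown comparison and 3 in the other, where intervals below 0 became 3 and 2-fold higher in RNA became 1, under either minimum. Of all genes 11.7% with the minimum of 10 and 9.14% with none had a translation efficiency interval below 0 in that other comparison. Without a minimum the starvation median in translation efficiency was -0.064 and 1 member was 2-fold higher. With a minimum of 10 the core lead in translation efficiency level in complete medium was 0.20, and relative to genes of like length it was 0.33 in the starved control.

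TMM factors over all genes of the table, chosen after seeing the data, gave in the knockdown comparison 1 member 2-fold lower in RNA, a footprint median of -0.23, 0 footprint intervals above 0 and 1 in translation efficiency. Of all genes 13.4% and 11.8% had such intervals. In the other comparison these factors gave an RNA median of -0.026, with 2 RNA intervals above 0 and 4 below, against 13.5% and 22.9% of all genes. There 0 members were 2-fold lower in translation efficiency. Among single members 4 calls were gained under an alternative and 1, PSMB7, was lost. Counts over the length of the RefSeq protein were not run. Depth limits the low members: from 30 to 60 counts, intervals span more than 1 log2 unit in input RNA.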
